A study of Mus musculus with 16 samples.

Results

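The 10 genes described here encode enzymes that make, use or break down AMP and the purine intermediate AICAR phosphate, and they were read from a table of RNA-seq counts of 24454 genes in mouse gastrocnemius muscle. They were chosen by name, as the enzymes around AICAR phosphate: Ppat, Gart, Paics, Adsl and Atic of purine synthesis, Adk and Nt5c1a, which link AMP to adenosine, and the AMP deaminase genes Ampd1, Ampd2 and Ampd3. Every gene was found in the table, and all 10 passed the filter on low counts, as did 15487 genes in all. The study sequenced 16 mice at 3 months of age, with 1 library per mouse. HSALR mice are homozygous FVB/N mice of a transgenic line that expresses a human skeletal actin transcript with long CTG repeats from its own promoter, hence in skeletal muscle, and they model myotonic dystrophy type I. FVB mice without the transgene were the controls. Of the HSALR mice, 5 were given AICAR at 500 mg/kg for 7 days and 5 its vehicle. Of the control mice, 3 were given AICAR in the same way and 3 the vehicle.

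Cells assemble purines step by step on a ribose phosphate, and AICAR phosphate, also called ZMP, is an intermediate of this pathway that is released by the Adsl enzyme and consumed by the Atic enzyme. AICAR given as a nucleoside enters the same pool once adenosine kinase has phosphorylated it, and as a mimic of AMP it activates the AMP-activated protein kinase. In working muscle, AMP deaminase turns AMP into IMP, which adenylosuccinate synthase and Adsl convert back into AMP, a loop known as the purine nucleotide cycle. The deaminase of adult muscle fibres is the product of Ampd1, whereas Ampd3 encodes the form first described in red blood cells and Ampd2 a form that is prominent in liver.

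The 3 deaminase genes are paralogs, and their sequences show how far reads can be told apart. The stretches printed here are coding sequence of GRCm38 from the GENCODE annotation, with the bases that encode the shared signature of the deaminase family in capitals. The Ampd1 stretch lies in exon 14 at chr3:103098772-103098852 on the plus strand. The Ampd2 stretch spans exons 16 and 17 between chr3:108075351-108075602 on the minus strand, and the Ampd3 stretch spans exons 13 and 14 between chr7:110807882-110809804 on the plus strand.
Ampd1: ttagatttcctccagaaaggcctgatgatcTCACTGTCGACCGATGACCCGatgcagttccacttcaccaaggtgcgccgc
Ampd2: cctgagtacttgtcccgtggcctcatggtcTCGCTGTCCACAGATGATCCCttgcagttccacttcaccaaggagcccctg
Ampd3: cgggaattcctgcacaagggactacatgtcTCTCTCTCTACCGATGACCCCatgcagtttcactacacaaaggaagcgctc
Even here Ampd1 and Ampd3 were the same at 55 of 81 bases, and at 17 of the 21 bases of the signature. Ampd1 and Ampd2 were the same at 56 of 81 bases. Over their full transcripts the longest identical run was 17 bases between Ampd1 and Ampd3, 20 bases between Ampd2 and Ampd3 and 34 bases between Ampd1 and Ampd2. No window of 50 bases of Ampd1, Ampd2, Gart or Nt5c1a occurred in an annotated transcript of another gene, whereas such windows made up 2.18% of those of Paics and between 0.211% and 0.882% in the other 5 genes.

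The counts of Ampd3 do not separate transcripts from different start sites, of which RefSeq lists 3. The bases before each of these starts (GRCm38.p6, plus strand) are shown together with those before the start of Atic, which also changed with AICAR in HSALR muscle. Capitals mark CACGTG, an E-box that reads the same on both strands and is bound by factors of the MYC and USF families.
Ampd3 start A, chr7:110768372-110768621: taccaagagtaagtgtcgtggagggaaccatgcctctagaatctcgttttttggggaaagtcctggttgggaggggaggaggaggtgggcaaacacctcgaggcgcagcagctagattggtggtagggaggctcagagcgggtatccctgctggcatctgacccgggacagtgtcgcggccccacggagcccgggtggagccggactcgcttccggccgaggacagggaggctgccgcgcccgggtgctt
Ampd3 start B, chr7:110772354-110772603: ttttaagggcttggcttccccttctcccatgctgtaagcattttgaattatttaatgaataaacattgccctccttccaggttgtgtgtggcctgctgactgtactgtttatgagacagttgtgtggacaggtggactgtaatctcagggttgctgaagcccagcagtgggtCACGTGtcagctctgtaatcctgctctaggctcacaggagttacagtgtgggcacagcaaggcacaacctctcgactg
Ampd3 start C, chr7:110773386-110773635: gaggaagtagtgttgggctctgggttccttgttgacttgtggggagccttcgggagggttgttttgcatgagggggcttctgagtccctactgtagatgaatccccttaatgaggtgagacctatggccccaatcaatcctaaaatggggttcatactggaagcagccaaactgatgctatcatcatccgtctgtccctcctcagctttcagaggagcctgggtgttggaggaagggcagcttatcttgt
Atic, chr1:71556906-71557155: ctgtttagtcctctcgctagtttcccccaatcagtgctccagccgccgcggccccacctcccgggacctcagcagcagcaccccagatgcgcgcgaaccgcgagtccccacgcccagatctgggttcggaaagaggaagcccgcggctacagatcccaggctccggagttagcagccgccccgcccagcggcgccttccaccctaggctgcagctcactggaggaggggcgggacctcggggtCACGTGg
The E-box stood in 1 window of Ampd3, in the window of Atic and in that of Paics, thus in 3 of the 13 windows of the 9 genes with a listed start, and in 6.02% of all 32851 windows of 250 bases. The counts do not show which start was used, and a match describes these letters only.

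Levels per length placed Ampd1 far above the other genes. Values are in normalized RPKM, the count scaled to its library by the TMM method and divided by the deposited gene length. Over the 16 mice, Ampd1 averaged 401 (range 253 to 580.5), Adk 50.5 (45.5 to 55.5), Paics 50.3 (46.3 to 56.0) and Adsl 39.7 (35.4 to 44.9). Lower levels were found for Gart at 15.2 (13.8 to 16.5), Atic at 10.9 (9.88 to 12.0), Ppat at 10.2 (7.98 to 13.5), Ampd3 at 8.84 (5.77 to 14.3) and Nt5c1a at 7.02 (4.89 to 10.7). Ampd2 was lowest at 1.33 (0.982 to 1.71), with between 282 and 507 reads per library, while Ampd1 had between 41723 and 106603. In this order the ranges of Adk and Paics overlapped, as did those of Atic, Ppat, Ampd3 and Nt5c1a and those of Gart and Ampd3, so that these pairs are not separated by the spread between mice. Total counts per library ranged from 64890014 to 81987726.

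Differences between groups were tested with the edgeR quasi-likelihood test on all 16 mice, and p-values were adjusted by the Benjamini-Hochberg method over the 15487 genes tested. Changes are log2 fold changes of the fitted model with their standard error (SE), a gene was called different at an adjusted p under 0.05, and levels of single genes are in normalized CPM (CPM after TMM scaling, not divided by length), as mean ± SD. Because RNA of whole muscle was measured, fewer cells of a type and less RNA per cell cannot be told apart. In HSALR muscle after AICAR, Ampd1 fell and Ampd3 rose against vehicle, with no overlap between the mice of both groups, while of the 5 genes of purine synthesis Atic alone passed the test, with a small fall.

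**Figure D1:**
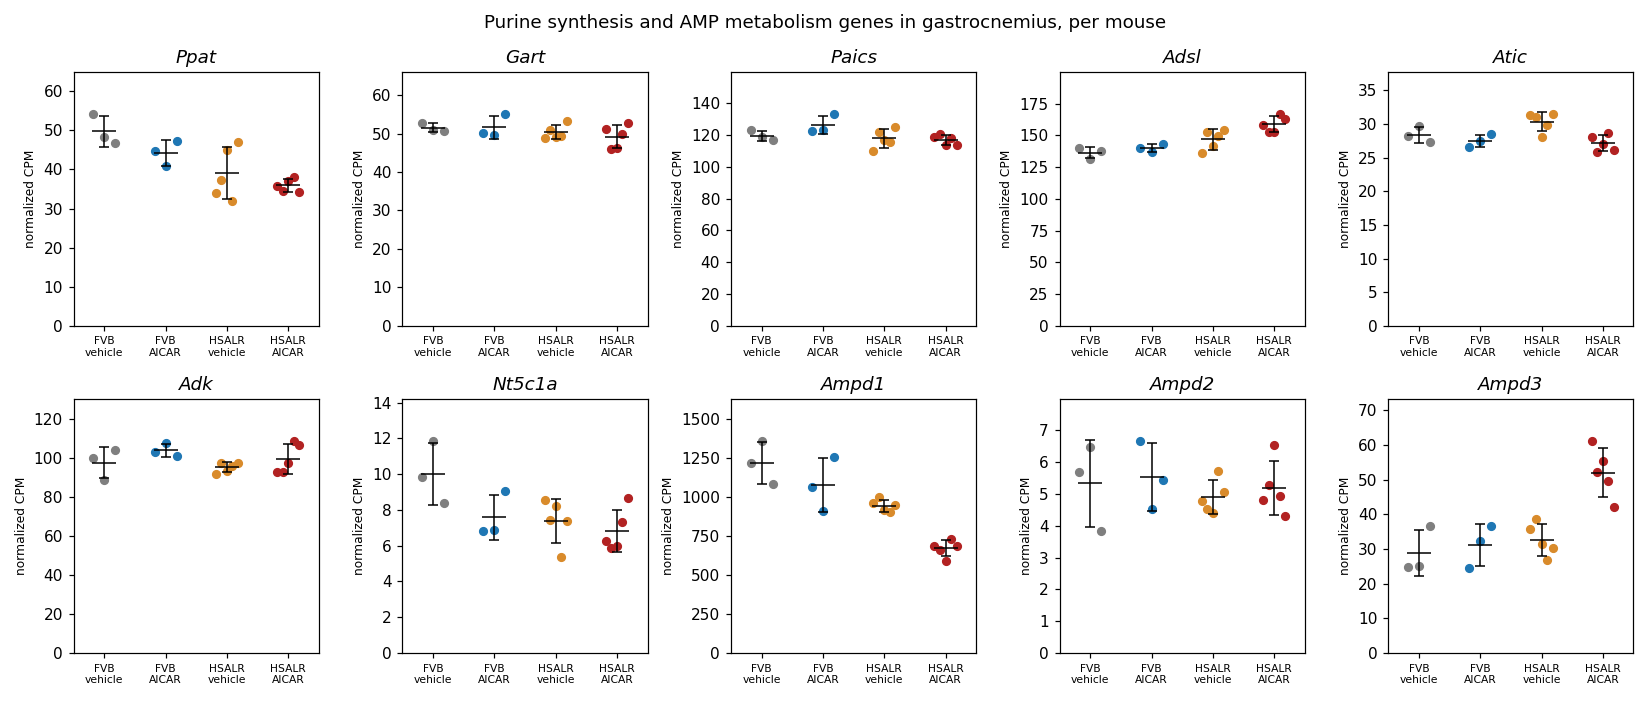
Normalized CPM (y axis, from 0) of the 10 genes in each mouse (points) of the 4 groups (x axis), with the mean (dash) and SD (bars) of each group. The AICAR-treated HSALR mice lay between 594 and 734 for Ampd1 and between 42.2 and 61.1 for Ampd3, apart from all other mice, while Gart overlapped between all groups.

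Ampd1 (Entrez gene 229665, chromosome 3, 103073897 to 103099720 of GRCm38.p6) was at 1218, 1359 and 1087 in control mice given vehicle and at 1069, 915 and 1261 in control mice given AICAR. In HSALR mice it was at 963, 1002, 917, 905 and 949.8 after vehicle. After AICAR, HSALR mice were at 685, 663, 594, 734 and 690.3. All HSALR mice given vehicle were thus below all control mice given vehicle, all HSALR mice given AICAR were below every other mouse, and the control groups overlapped. Ampd1 was lower in HSALR than in control mice after vehicle, with log2 fold change -0.37 (SE 0.095, adjusted p = 0.0102). AICAR lowered it in HSALR mice with log2 fold change -0.49 (SE 0.084, adjusted p = 0.000612), to 0.711 of the vehicle level. In control mice the change was -0.18 (SE 0.11, adjusted p = 0.307) and did not pass. Between the genotypes after AICAR the log2 fold change was -0.68 (SE 0.095, adjusted p = 0.000156). The lower level of HSALR mice after vehicle lost its call without mouse S446 of the control group, with -0.28 and adjusted p = 0.0655, and without the libraries that held epidermal Krt14, described further on, with -0.43 and adjusted p = 0.14.

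Ampd3 (Entrez gene 11717, chromosome 7, 110767790 to 110812409) went the other way. Control mice were at 24.9, 25.2 and 36.6 after vehicle and at 24.6, 32.2 and 36.7 after AICAR. HSALR mice were at 35.8, 38.6, 31.6, 27.0 and 30.2 after vehicle and at 61.1, 52.15, 55.5, 49.5 and 42.2 after AICAR. The first 3 groups overlapped, and each HSALR mouse given AICAR was above all of them. In HSALR mice AICAR raised Ampd3 to 1.59 times its vehicle level, with log2 fold change 0.67 (SE 0.14, adjusted p = 0.00243). Without the 6 libraries that held epidermal Krt14, described further on, the call was lost (0.54, adjusted p = 0.18). The change in control mice was 0.11 (SE 0.18, adjusted p = 0.739), with a 95% interval from -0.27 to 0.49. After AICAR, Ampd3 was 1.67-fold higher in HSALR than in control mice, with log2 fold change 0.74 (SE 0.16, adjusted p = 0.00497), and after vehicle the difference was 0.18 (SE 0.16, adjusted p = 0.459).

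Exons of Ampd3 share 195 of their 5627 bases with exons of Rnf141 on the other strand, 196 with the noncoding B430319F04Rik and 83 with a noncoding gene on the same strand. The libraries were stranded, but whether strand was used in counting is not given in the sources used here, so reads of these bases cannot be told apart. Rnf141 itself was at 5.60 ± 0.868 (n = 5) after vehicle and 7.37 ± 0.766 (n = 5) after AICAR in HSALR mice, with log2 fold change 0.40 (SE 0.11, adjusted p = 0.0115).

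Ampd2, at 5.33 ± 1.36 (n = 3), 5.54 ± 1.07 (n = 3), 4.91 ± 0.522 (n = 5) and 5.18 ± 0.847 (n = 5) in control mice after vehicle and AICAR and HSALR mice after vehicle and AICAR, overlapped between all groups and passed no test. Exons of Ampd2 share 434 of their 5224 bases with Gm12500 on the other strand, whose reads cannot be told apart without strand. Of all deaminase transcripts counted per length, Ampd1 made up 98.4% ± 0.398 (n = 3) and 98.1% ± 0.286 (n = 3) in control mice after vehicle and AICAR, 97.8% ± 0.156 (n = 5) in HSALR mice after vehicle and 95.5% ± 0.772 (n = 5) after AICAR. The share of Ampd3 was 1.31% ± 0.439, 1.57% ± 0.322, 1.84% ± 0.192 and 4.08% ± 0.690 in the same order. Expressed as transcripts of Ampd3 per 100 of Ampd1, control mice were at 1.12, 1.01 and 1.85 after vehicle and at 1.26, 1.93 and 1.60 after AICAR. HSALR mice were at 2.04, 2.11, 1.89, 1.63 and 1.75 after vehicle and at 4.89, 4.31, 5.13, 3.70 and 3.35 after AICAR. The AICAR-treated HSALR mice stood above all other mice, and Ampd1 remained the main form in every mouse. The ratio needs no scaling between libraries, and it was not tested because it is built from the genes tested above.

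**Figure D2:**
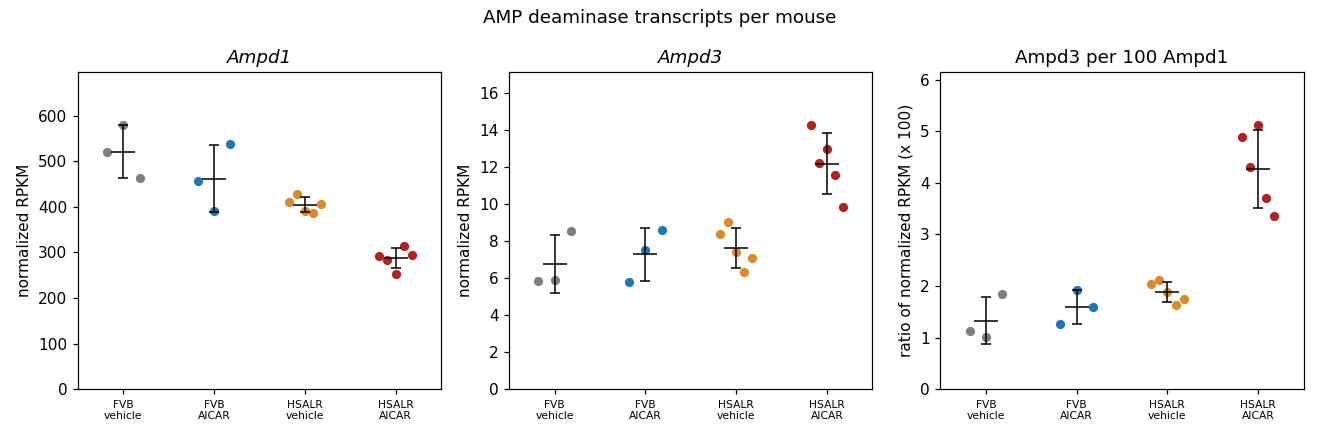
Normalized RPKM of Ampd1 and Ampd3 and their ratio times 100 (y axes, from 0) in each mouse (points) of the 4 groups (x axis), with mean (dash) and SD (bars). HSALR mice given AICAR had 3.35 to 5.13 Ampd3 transcripts per 100 of Ampd1, and the other mice had at most 2.11.

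Whether the AICAR response of the deaminases depended on genotype was tested as the difference of the log2 fold changes. For Ampd1 this difference was -0.32 (SE 0.14, 95% interval -0.61 to -0.03), with an unadjusted p = 0.0335 and an adjusted p = 0.285 in edgeR. It was 0.56 for Ampd3 (SE 0.23, 95% interval 0.08 to 1.04), with an unadjusted p = 0.0244 and an adjusted p = 0.257 in edgeR. These 2 genes were below 0.05 without adjustment, and 0 of the 10 genes were called, against 0.691% of all genes. DESeq2 and limma with voom also called 0. Over 23 alternatives the difference ranged from -0.46 to -0.19 for Ampd1 and from 0.25 to 0.70 for Ampd3, with the same sign throughout. A different response of the deaminases in HSALR and control mice is therefore not shown by these data, although the calls were made in HSALR mice.

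Of the 5 genes of purine synthesis, Ppat was called between the genotypes after vehicle, Adsl between them after AICAR and Atic for AICAR in HSALR mice, while Gart and Paics were not called. Ppat (Entrez gene 231327, chromosome 5, 76913249 to 76951578) encodes the amidotransferase of the committed first step. Its level was 54.1, 48.3 and 46.8 in control mice after vehicle, and 33.9, 37.2, 44.9, 32.0 and 47.0 in HSALR mice after vehicle. It was 44.8, 40.8 and 47.2 in control mice after AICAR and 35.7, 34.4, 37.0, 38.2 and 34.3 in HSALR mice after AICAR. After vehicle 4 of the HSALR mice were below all control mice and 1 was within their range, and after AICAR the genotypes did not overlap. Ppat was lower in HSALR mice after vehicle, with log2 fold change -0.35 (SE 0.11, adjusted p = 0.0244), a call that was lost without control mouse S445 (-0.29, adjusted p = 0.122) and in a fit of the compared groups only (0.0833). After AICAR the difference was -0.30 (SE 0.11, adjusted p = 0.0568) and did not pass in edgeR, while DESeq2 called it (adjusted p = 0.033), and over all alternatives the adjusted p ranged from 0.00929 to 0.177. Paics, the neighbour of Ppat on chromosome 5 (76951302 to 76967509), encodes an enzyme of later steps. The 2 genes start head to head and their exons share 272 bases, so reads there cannot be assigned without strand. Paics was at 120 ± 3.04 (n = 3), 127 ± 5.79 (n = 3), 118 ± 5.93 (n = 5) and 117 ± 3.08 (n = 5) in control mice after vehicle and AICAR and HSALR mice after vehicle and AICAR. It passed no edgeR test with TMM scaling, with adjusted p = 0.803 for the genotypes after vehicle and 0.119 after AICAR, where the groups did not overlap. Scaled by library size only, Paics was called lower after AICAR (-0.12, adjusted p = 0.0485).

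Gart (chromosome 16, 91621395 to 91646972), which encodes an enzyme with 3 activities early in the pathway, was at 51.6 ± 1.14 (n = 3), 51.6 ± 2.99 (n = 3), 50.3 ± 1.82 (n = 5) and 49.2 ± 3.02 (n = 5) in the same order of groups. Its log2 fold changes lay between -0.07 and 0.00, and the range of its group means, 0.070 on the log2 scale, was the smallest of the 10 genes. Gart and Gm15964 on the other strand share 1014 of the 5144 exonic bases of Gart.

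Adsl (chromosome 15, 80948490 to 80970947) encodes adenylosuccinate lyase, which acts both in the synthesis of ZMP and in the return from IMP to AMP. Control mice were at 139.8, 131 and 138 after vehicle and at 139.8, 137 and 144 after AICAR. HSALR mice were at 136, 153, 141, 149.7 and 154 after vehicle and at 158, 152, 152, 167 and 163 after AICAR. All HSALR mice given AICAR were above all control mice, and they overlapped with HSALR mice given vehicle. After AICAR the genotypes differed by a log2 fold change of 0.18 (SE 0.053, adjusted p = 0.026). The call was lost without control mouse S447 (adjusted p = 0.0791) or S448 (0.0896) and without HSALR mouse S462 (0.0587) or S463 (0.054), as well as without the libraries with epidermal Krt14 described further on (0.0995). The log2 fold change of Adsl lay between 0.16 and 0.19 in all 16 alternatives. In HSALR mice the log2 fold change of Adsl with AICAR was 0.11 (SE 0.046, adjusted p = 0.0847), which edgeR did not call and DESeq2 did (0.049). Over the alternatives its adjusted p ranged from 0.049 to 0.597. In control mice it was 0.04 (SE 0.059, adjusted p = 0.704).

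Atic (chromosome 1, 71557156 to 71579403) encodes the enzyme that consumes ZMP and forms IMP. HSALR mice were at 31.3, 31.0, 28.1, 29.8 and 31.4 after vehicle and at 28.1, 25.8, 27.1, 28.7 and 26.1 after AICAR, so that all but 1 of the vehicle group were above the AICAR group. Control mice were at 28.2, 29.7 and 27.3 after vehicle and at 26.6, 27.4 and 28.4 after AICAR, within the range that the HSALR mice spanned. AICAR lowered Atic in HSALR mice to 0.895 of its level, with log2 fold change -0.16 (SE 0.046, adjusted p = 0.0194). This small change passed no longer without HSALR mouse S451 (adjusted p = 0.0533), S452 (0.0519) or S455 (0.0505), or without the Krt14 libraries described further on. The log2 fold change of Atic lay between -0.24 and -0.14 in all 18 alternatives. In control mice the change was -0.05 (SE 0.060, adjusted p = 0.657), and the difference between both changes, -0.11 (SE 0.076, adjusted p = 0.511), did not pass.

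Adk (chromosome 14, 21052574 to 21448569), whose product adenosine kinase forms AMP from adenosine and ZMP from AICAR, was at 97.4 ± 7.82 (n = 3) in control mice after vehicle, 104 ± 3.32 (n = 3) after AICAR, 95.2 ± 2.60 (n = 5) in HSALR mice after vehicle and 99.5 ± 7.59 (n = 5) after AICAR. It passed no test, and its 95% intervals reached at most 0.245 on the log2 scale. Nt5c1a (chromosome 4, 123201230 to 123225339) encodes a nucleotidase of the cytosol that turns AMP into adenosine. Control mice were at 9.82, 11.8 and 8.38 after vehicle and at 6.84, 6.90 and 9.04 after AICAR, and HSALR mice were at 8.57, 7.46, 8.20, 5.40 and 7.40 after vehicle and at 6.25, 5.88, 5.99, 7.33 and 8.64 after AICAR. All groups overlapped. In HSALR against control mice after vehicle, the log2 fold change of Nt5c1a was -0.44 (SE 0.16, adjusted p = 0.0599) with edgeR, while DESeq2 (adjusted p = 0.0363) and limma with voom (0.0455) called it. Without control mouse S450 or HSALR mouse S451 edgeR called it as well, with adjusted p = 0.0422 and 0.0435. AICAR in control mice gave -0.40 (SE 0.18), with an unadjusted p = 0.0469 and an adjusted p = 0.169 in edgeR.

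Counted over the 10 genes, 2 were called between HSALR and control mice after vehicle, both lower, while 26.9% of all tested genes were called in that comparison. AICAR in HSALR mice changed 3 genes, 1 higher and 2 lower, against 26.6% of all genes, and HSALR and control mice after AICAR differed in 3 genes, 2 higher and 1 lower, against 21.8%. For AICAR in control mice 0 genes were called, against 13.2% of all genes, and 1 gene had an unadjusted p under 0.05. DESeq2 and limma with voom also called 0 there. The shares of members called are thus close to or below those of all genes. The median log2 fold change of the 10 genes was -0.04 between the genotypes after vehicle, -0.02 for AICAR in HSALR mice, 0.02 for AICAR in control mice and -0.08 between the genotypes after AICAR, beside 0.01, -0.02, -0.01 and 0.00 over all tested genes. These comparisons share groups, so their counts are not independent.

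**Figure D3:**
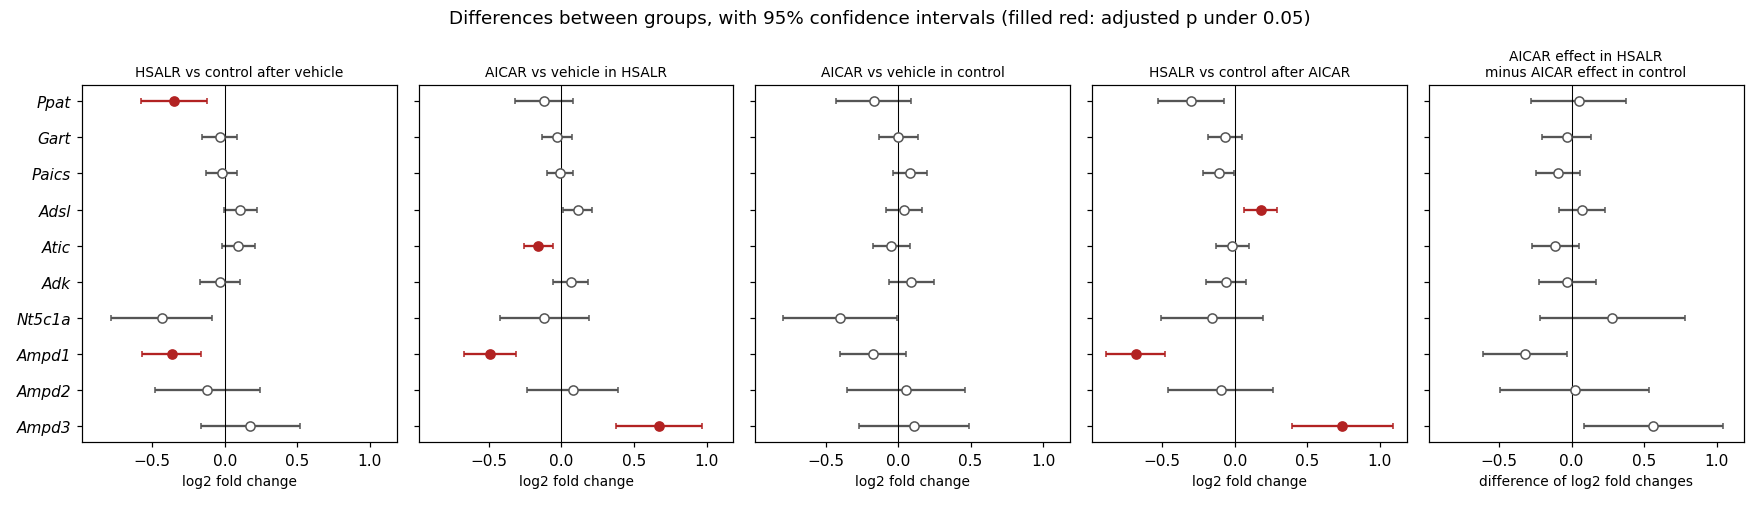
Log2 fold change (x axis; in the last panel the difference of log2 fold changes) of the 10 genes (y axis) in the 5 comparisons, with 95% confidence intervals from the edgeR fit. Filled red points had an adjusted p under 0.05. Ampd1 lay at -0.49 and Ampd3 at 0.67 for AICAR in HSALR mice, whereas Gart, Paics and Adk stayed near 0 throughout.

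RNA of other tissues differed between groups. Epidermal genes (8 markers such as Krt5 and Krt14, a list chosen after these data had been seen) summed to between 0.256 and 92.3 normalized CPM in control mice after vehicle, 0.243 and 104 in control mice after AICAR, and 0.612 and 187 in HSALR mice after vehicle, but to at most 0.371 in HSALR mice after AICAR, where Flg2 and Dsg1a were at 0. Krt14 was above 1 normalized CPM in 6 libraries: 4 of HSALR mice given vehicle, 1 of a control mouse given vehicle and 1 of a control mouse given AICAR. All 8 markers were lower after AICAR in HSALR mice. Between the genotypes after AICAR, 5 of the 8 were lower in HSALR mice. With the epidermal level as a covariate, AICAR in HSALR mice changed Ampd1 by -0.65 (adjusted p = 0.000831), Ampd3 by 0.78 (0.00979) and Atic by -0.20 (0.046) in edgeR. Without these 6 libraries, a choice made after seeing the data, which leaves 1 HSALR mouse given vehicle and assumes that it varies like the other groups, Ampd1 changed by -0.52 (adjusted p = 0.0424), Ampd3 by 0.54 (0.18) and Atic by -0.21 (0.189). Between the genotypes after vehicle the same choice gave -0.43 for Ampd1 (adjusted p = 0.14) and -0.60 for Ppat (0.0109).

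Markers of blood, vessels and other cells between the fibres also varied. The 6 erythroid markers summed to 1219 to 3123 in control mice after vehicle, 514 to 866 after AICAR, 273 to 2832 in HSALR mice after vehicle and 475 to 1037 after AICAR, and 0 of the 6 passed the edgeR test with AICAR in either genotype. The 6 leukocyte markers summed to 113 to 156, 115 to 136, 134 to 180 and 139 to 237 in the same order, with 2 of 6, Cd68 and Csf1r, higher in HSALR than in control mice after vehicle and 1 of 6, Csf1r, lower after AICAR in HSALR mice. The 4 endothelial markers summed to 246 to 272 and 240.1 to 264 in control mice and to 162 to 210 and 194 to 212 in HSALR mice, with all 4 lower in HSALR than in control mice after vehicle, 2 of 4, Pecam1 and Cdh5, lower after AICAR, and 1 of 4, Pecam1, higher after AICAR in HSALR mice. The 4 fibroblast markers, with 2 lower after AICAR in HSALR mice, summed to 894 to 1126 in HSALR mice given vehicle and 769 to 921 in those given AICAR, and the 4 adipocyte markers to 36.7 to 82.6 and 47.2 to 109. Markers of the muscle fibre itself summed to between 99430 and 150300 in every library, and 0 of the 6 passed the edgeR test with AICAR in either genotype. Between the genotypes, Mb (0.80) and Acta1 (0.31) were higher and Ryr1 (-0.38) lower in HSALR mice after vehicle, and Mb (1.18) and Acta1 (0.46) were higher and Myh4 (-0.67) lower after AICAR, all log2 fold changes with an adjusted p under 0.05. The part of these cells in the results was not tested.

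The genes whose pattern over the 16 mice was most like that of Ampd3, whose range of group means, 0.86 on the log2 scale, was level with that of Ampd1, were Map1lc3a, Nln and Abcc8. Likeness was measured as the root mean square difference of log2 levels centred on each gene's mean, and it was 0.17 for Map1lc3a, 0.18 for Nln and 0.19 for Abcc8. Map1lc3a, which encodes a protein of the autophagosome membrane, averaged 107, 126, 128 and 196 normalized CPM in control mice after vehicle and AICAR and HSALR mice after vehicle and AICAR. Nln, a peptidase gene, averaged 13.5, 16.6, 14.4 and 22.5, and Abcc8, which encodes the sulfonylurea receptor of a potassium channel, 6.07, 7.18, 7.88 and 11.9.

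Around the 10 genes, 56 further genes of purine metabolism were examined in 8 groups by function, of which 51 were tested. In HSALR mice AICAR raised 6 and lowered 6 of the 51, with a median log2 fold change of -0.01, and in control mice it raised 5 and lowered 3, with a median of 0.04. Between HSALR and control mice 8 were higher and 8 lower after vehicle (median 0.08), and 6 were higher and 6 lower after AICAR (median 0.04). The genes called thus made up 23.5% for AICAR in HSALR mice, 15.7% for AICAR in control mice, 31.4% for the genotypes after vehicle and 23.5% after AICAR, near the 26.6%, 13.2%, 26.9% and 21.8% of all tested genes.

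Adssl1, the muscle gene for adenylosuccinate synthase and thus of the purine nucleotide cycle, fell with AICAR from 840.3 ± 82.3 (n = 5) to 573 ± 33.5 (n = 5) normalized CPM in HSALR mice, with log2 fold change -0.55 (SE 0.068, adjusted p = 4.72e-05). In control mice it fell from 777 ± 37.8 (n = 3) to 585 ± 35.3 (n = 3), with log2 fold change -0.41 (SE 0.087, adjusted p = 0.00651), and both falls separated the mice of the groups. Their difference of -0.14 (SE 0.11, adjusted p = 0.571) did not pass. Adsl, the next enzyme of the cycle, was not called with AICAR by edgeR, as given above.

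Impdh1, the gene of an enzyme that leads from IMP towards GMP, was called for a difference between the AICAR responses, at -0.56 (SE 0.10, adjusted p = 0.0268). It was the only such call of these lists, 1.96% of the 51 genes tested, beside 0.691% of all tested genes. The call was lost without control mouse S445 (adjusted p = 0.0855), S448 (0.0539) or S450 (0.0559) and without the Krt14 libraries (0.173), while the difference for Impdh1 lay between -0.73 and -0.51 in all 23 alternatives. In control mice it rose from 12.8 ± 0.549 (n = 3) to 17.8 ± 0.638 (n = 3) with AICAR, and in HSALR mice it was 19.4 ± 1.48 (n = 5) after vehicle and 18.3 ± 1.35 (n = 5) after AICAR. HSALR mice given vehicle were 1.51-fold above control mice given vehicle, with log2 fold change 0.60 (SE 0.073, adjusted p = 3.14e-05).

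Of the purine degradation genes, both that were tested, Xdh and Gda, rose with AICAR in HSALR mice, where 13.7% of all tested genes were called higher. Xdh, which encodes xanthine dehydrogenase and is also a gene of vessel walls, went from 28.4 ± 4.83 (n = 5) to 45.5 ± 3.87 (n = 5), with log2 fold change 0.68 (SE 0.12, adjusted p = 0.000977), after being lower than in control mice given vehicle by a log2 fold change of -0.65 (SE 0.14, adjusted p = 0.00294). Its AICAR responses differed by 0.91 (SE 0.20), with adjusted p = 0.0515 in edgeR. Gda, which encodes guanine deaminase, rose with a log2 fold change of 0.55 (SE 0.13, adjusted p = 0.00576), although its groups overlapped. Prpsap1, a regulator of the enzyme that supplies the ribose phosphate, rose with AICAR in both genotypes, by 0.45 (SE 0.075, adjusted p = 0.00055) in HSALR and 0.51 (SE 0.097, adjusted p = 0.00352) in control mice, while its relative Prpsap2 fell in control mice (-0.50, SE 0.12, adjusted p = 0.00991). Without the Krt14 libraries, which leaves 1 HSALR mouse given vehicle, the AICAR calls in HSALR mice were lost for Xdh (0.63), Gda (0.58) and Prpsap1 (0.41). The genotype call for Xdh after vehicle was lost as well. In control mice, where this choice leaves out 1 mouse of each group, the AICAR calls were lost for Prpsap1 and Prpsap2. Over all 14 alternatives in control mice, Prpsap1 lay between 0.46 and 0.55 and Prpsap2 between -0.55 and -0.43.

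Folate enzymes, which supply the one-carbon units that Gart and Atic use, moved both ways among 12 genes. AICAR lowered Aldh1l1, with log2 fold changes of -0.54 (SE 0.12, adjusted p = 0.00351; 0.0503 with the epidermal covariate) in HSALR and -0.82 (SE 0.15, adjusted p = 0.00283) in control mice. It raised Mthfd1l (1.68, SE 0.38, adjusted p = 0.00911) and Aldh1l2 (0.51, SE 0.13, adjusted p = 0.0168) in control mice. The Aldh1l2 call was lost in 4 of 14 alternatives: without mouse S445 (0.47, adjusted p = 0.067) or S449 (0.32, 0.0848), without the Krt14 libraries (0.0941) and with only the groups compared (0.0903). Mthfd1l was low, at 0.823 ± 0.00705 (n = 3) and 2.65 ± 0.471 (n = 3) normalized CPM. Aldh1l2 was the gene with the largest genotype difference of the lists, with log2 fold change -1.29 (SE 0.11, adjusted p = 1.64e-06) after vehicle and -1.54 (SE 0.11, adjusted p = 5e-07) after AICAR. Shmt1 was higher in HSALR mice after vehicle (0.67, SE 0.17, adjusted p = 0.00777), but not without the Krt14 libraries (0.11, adjusted p = 0.862). Mthfd2l was higher in HSALR mice after vehicle (0.51, SE 0.087, adjusted p = 0.00052) and after AICAR (0.36, SE 0.086, adjusted p = 0.00739), and it rose with AICAR in HSALR (0.23, adjusted p = 0.029) and control mice (0.38, adjusted p = 0.0173). Alternatives for Mthfd2l were run only for the genotypes after AICAR.

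Of the genes that recycle nucleotides, Ak4, a mitochondrial adenylate kinase gene, was lower in HSALR mice after vehicle (-0.83, SE 0.17, adjusted p = 0.00215) and after AICAR (-1.04, SE 0.17, adjusted p = 0.000615), the former not without the Krt14 libraries (-0.61, adjusted p = 0.34). Mtap, which salvages adenine from methylthioadenosine, was lower in HSALR than in control mice after vehicle (-0.63, SE 0.081, adjusted p = 4.93e-05) and after AICAR (-0.80, SE 0.081, adjusted p = 1.02e-05), and AICAR itself gave no call for Mtap in HSALR (-0.19, adjusted p = 0.0652) or control mice (-0.02, adjusted p = 0.918). Of the 8 salvage genes, 3 were higher and 1, Mtap, lower in HSALR mice after vehicle, where 15.4% of all tested genes were called higher and 11.5% lower. The 3 higher genes, named after their values were seen, were Hprt (0.53, adjusted p = 1.38e-05), Dck (0.32, 0.0165) and Aprt (0.22, 0.0191). AICAR in HSALR mice lowered Hprt (-0.28, adjusted p = 0.00104) and Dck (-0.22, 0.0465), although the Dck groups overlapped. The nucleotidase genes Nt5c and Nt5c3 were higher in HSALR mice under both treatments. Nt5c differed by 0.64 after vehicle (SE 0.11, adjusted p = 0.000395; 0.0942 without the Krt14 libraries) and by 0.31 after AICAR (SE 0.10, adjusted p = 0.0446). Nt5c3 differed by 0.27 after vehicle (SE 0.073, adjusted p = 0.0132) and by 0.39 after AICAR (SE 0.073, adjusted p = 0.00184). Nt5e of the same list, also named after its value was seen, was lower in HSALR mice after AICAR (-0.70, SE 0.16, adjusted p = 0.00675). No alternatives were run for the calls of Hprt, Dck, Aprt and Nt5e, of Mtap and Nt5c3 after vehicle, or of Nt5c after AICAR. Prpsap2 was higher in HSALR mice after AICAR (0.32, SE 0.10, adjusted p = 0.0373), a call that 11 of 16 alternatives lost, with adjusted p up to 0.136. Nucleoside transporters gave no call with AICAR in either genotype among the 5 tested.

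**Figure D4:**
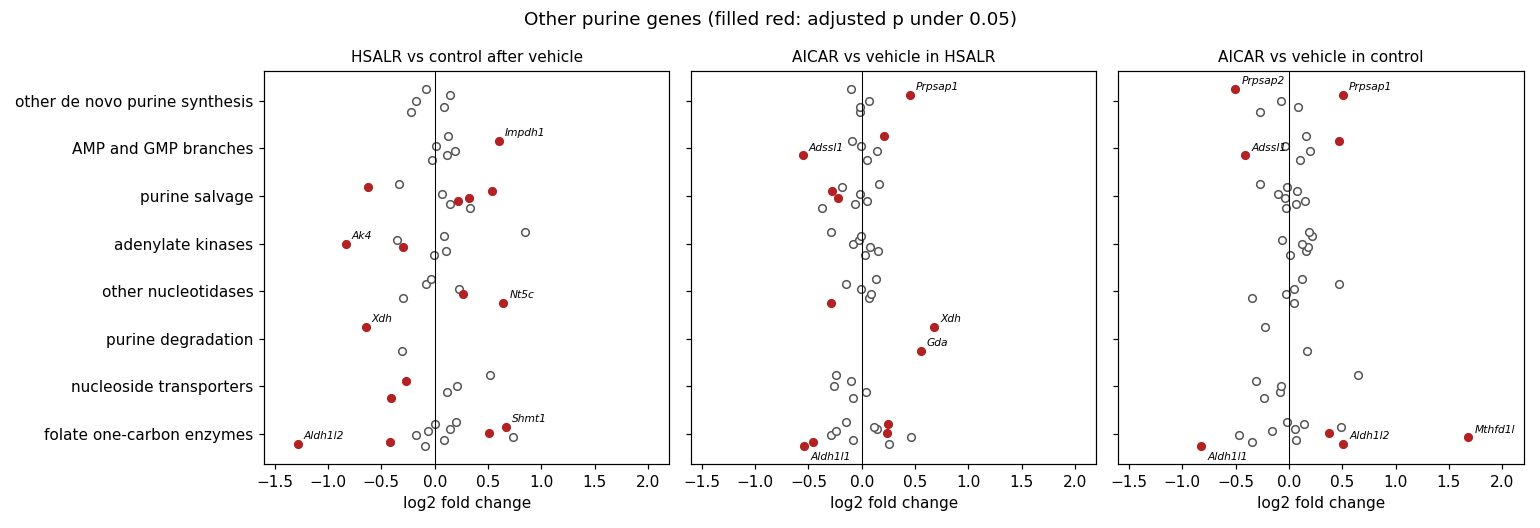
Log2 fold change (x axis) of 51 other purine genes (points), in 8 groups by function (y axis), for the genotypes after vehicle and for AICAR in HSALR and control mice. Filled red points had an adjusted p under 0.05, and genes described in the text are named where they were among the largest changes of a panel. In HSALR mice after AICAR, Xdh and Gda lay above 0 and Adssl1 below it.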

How the data were processed

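The authors aligned single-end reads of stranded mRNA libraries to mm10 with STAR 2.5.2a, allowing several hits per read, and counted reads that start in RefSeq exons with QuasR. The deposited table holds these raw counts per Entrez gene and library. Whether strand was used is not given in the sources used here. Gene symbols matched 24374 of 24454 identifiers. Groups followed the sample labels. Counts were scaled with TMM, filtered with filterByExpr and tested with the quasi-likelihood test of edgeR 4.0.16 (R 4.3.3) on all 16 mice, with Benjamini-Hochberg adjustment over 15487 genes and a threshold of 0.05. The code was tested on simulated data. Libraries held 64890014 to 81987726 counts (median 73021286), and replicates of a group differed beyond counting noise. Alternatives were RLE factors, total counts, no filter, DESeq2 1.42.0, limma 3.58.1 with voom, only the groups compared, an epidermal covariate and leaving out each mouse. Named were all 10 genes and, of the other purine genes, up to 3 called per direction and comparison with the largest change, except 1 that is not reported here. The genes and lists were chosen with earlier results of these data known. Sequences came from RefSeq and GENCODE on GRCm38. Figures were drawn with matplotlib 3.10.9 under Python 3.11.15.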

Additional observations from a re-analysis of the deposited data

Results flagged for a closer look

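In 52 groups of 5 mice over 26 purine genes, 3 single values stood far from the others of their group, where chance gives about 5%, and 0 of them were in the 10 genes. The control groups of 3 mice were not examined in this way. Shmt1 was at 32.3 normalized CPM in mouse S463 of the AICAR-treated HSALR group, while the others lay between 20.8 and 23.9. In mouse S458 of the vehicle-treated HSALR group Gda was at 24.6, above the 20.2 to 21.1 of the others, and Mthfd1l was at 2.66, above 0.654 to 1.22. The AICAR effect on Impdh1 differed between the genotypes by -0.56 on the log2 scale in the edgeR test of that difference, and 4 of 23 alternatives lost the call.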

How the results depend on the processing

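No paired analysis was possible because each mouse has its own identifier and the groups share no replicate numbers. Of 870 alternative values of the 10 genes, 805 kept direction and call, 14 lost and 10 gained the call, and 41 changed sign, none of them a called value. Most of the 870 belong to values that were not called in the main fit, so most of the 805 stayed uncalled. For the other purine genes, alternatives were run only for called values with the largest changes, up to 3 per direction and comparison. Of these 407 alternative values, 377 kept direction and call and 30 lost the call. The other called values of these genes were not examined in this way. The number of genes called fell from 3 to 1 for AICAR in HSALR mice without the libraries with Krt14, where 1 vehicle mouse is left. It rose from 3 to 5 for the genotypes after AICAR with library size only. For the genotypes after vehicle it fell from 2 to 1 with only the groups compared or without the Krt14 libraries, and lay between 1 and 3 when single mice were left out (1 without S445 or S446). The cause was not tested. Ampd2 had the fewest reads of the 10 genes, and a limit by depth was not tested.

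The values that changed sign are log2 fold changes, with ranges over leaving out single mice. For the difference of AICAR effects, the epidermal covariate gave 0.025 for Adk and -0.245 for Ampd2, library size only -0.01 for Ampd2, and leaving out the Krt14 libraries 0.009 for Adk and 0.012 for Paics. Single mice gave -0.077 to 0.035 for Adk, -0.139 to 0.214 for Ampd2, -0.06 to 0.016 for Gart and -0.016 to 0.125 for Ppat. For AICAR in HSALR mice, library size only gave -0.014 for Adk, the covariate -0.206 for Ampd2, and leaving out the Krt14 libraries 0.006 for Gart, 0.084 for Paics and 0.078 for Ppat. Single mice gave -0.021 to 0.14 for Ampd2 and -0.034 to 0.011 for Paics. For AICAR in control mice, library size only gave -0.008 for Adsl and -0.049 for Gart, the covariate -0.001, voom 0 and only the groups compared -0.006 for Gart, and leaving out the Krt14 libraries -0.019 for Ampd2. Single mice gave -0.136 to 0.217 for Ampd2, -0.024 to 0.317 for Ampd3 and -0.048 to 0.027 for Gart. Between the genotypes after vehicle, the covariate gave 0.033 for Ampd2 and leaving out the Krt14 libraries -0.004 for Adsl, and single mice -0.097 to 0.015 for Adk and -0.31 to 0.042 for Ampd2. After AICAR single mice gave -0.223 to 0.056 for Ampd2 and -0.041 to 0.007 for Atic.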
